A study of Bos taurus with 8 samples.

Results

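A single microRNA gene, the row ENSBTAG00000029897, held the largest part of the reads assigned to genes in the small RNA libraries of bovine alveolar macrophages. It is 1 gene of the 1153 in the deposited table and was chosen by its mean deposited level over the 8 libraries, the highest of the table, so its level is described here and not tested. The study's published report names miR-21 as the most abundant microRNA of these cells, and the name miR-21 for this row rests on that ranking alone. The file lists Ensembl identifiers without microRNA names, and 0 of its identifiers could be matched to the RefSeq gene table of the assembly ARS-UCD2.0, so the name could not be checked against the data. No sequence could be tied to the row, and none is printed. The row is referred to below as the leading gene, and the others by their place in the order of mean levels (rank 2, rank 3 and so on).

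Alveolar macrophages, phagocytes that reside in the air spaces of the lung, came from lung lavages of 8 cattle. The isolated cells had been frozen. After thawing they spent 24 hours in RPMI medium with 10% fetal bovine serum and antimicrobials, under 5% CO2 at 37 °C. Adherent cells were lysed, and 1 small RNA library was made per animal, so the libraries form a single group with no treated or control samples. All animals share this freezing and culture, and the labels give no age, breed or treatment that would set them apart. The labelled cell type could not be checked against defining microRNAs, because the rows carry no names. In such bulk libraries, fewer cells of a type and less RNA per cell cannot be told apart.

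As background, a microRNA gene is transcribed into a hairpin that is cut to a short mature RNA. The mature RNA is loaded into Argonaute and guides it to messenger RNAs that pair with its seed, the bases near the 5′ end, which lowers their translation and stability. miR-21 is abundant in many cell types and is known to be induced in macrophages by inflammatory signals. Its well-known targets include PDCD4, a translation inhibitor. RefSeq holds 1 bovine gene with the symbol MIR21, whose neighbours in the assembly are VMP1, a gene of autophagy, and TUBD1, a tubulin gene.

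The libraries held 3638161 to 5888148 assigned reads, and the leading gene was first in all 8 of them. By linear correlation without the leading gene, animal 8 stands apart from the others, and values without it are given beside the results that rest on it. Each library is a separate animal, but the spread between libraries also holds that of culture and library preparation.

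The leading gene had 778647 CPM in animal 1, 811240 in animal 2, 798224 in animal 3 and 759241 in animal 4, where CPM is reads per 1000000 assigned reads. It had 796997 CPM in animal 5, 789388 in animal 6, 792299 in animal 7 and 814183 in animal 8. The mean was 792527 ± 17656 CPM (SD, n = 8), a coefficient of variation of 2.23%. The order of the animals ran from animal 4, the lowest, through animals 1, 6, 7, 5, 3 and 2 to animal 8. No 2 neighbours in this order had overlapping exact Clopper-Pearson 95% intervals. Those intervals cover counting error only, and the counting error of a share was at most 0.0213 percentage points. The SD between animals, 1.77 percentage points, was 82.9 times that. Between animals 5 and 3 the gap was 0.123 percentage points, and between animals 4 and 1 it was 1.94. With 1 library per animal, it is not known whether gaps of this size exceed the spread between repeat libraries of an animal.

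Just outside the rule that chose the leading gene stood the gene at rank 2, ENSBTAG00000029996, with 74379 ± 18784 CPM (SD, n = 8). The median of the mean levels over the 142 other genes that averaged at least 10 CPM was 144 CPM, and the leading gene lay 5494 times above it.

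**Figure D1:**
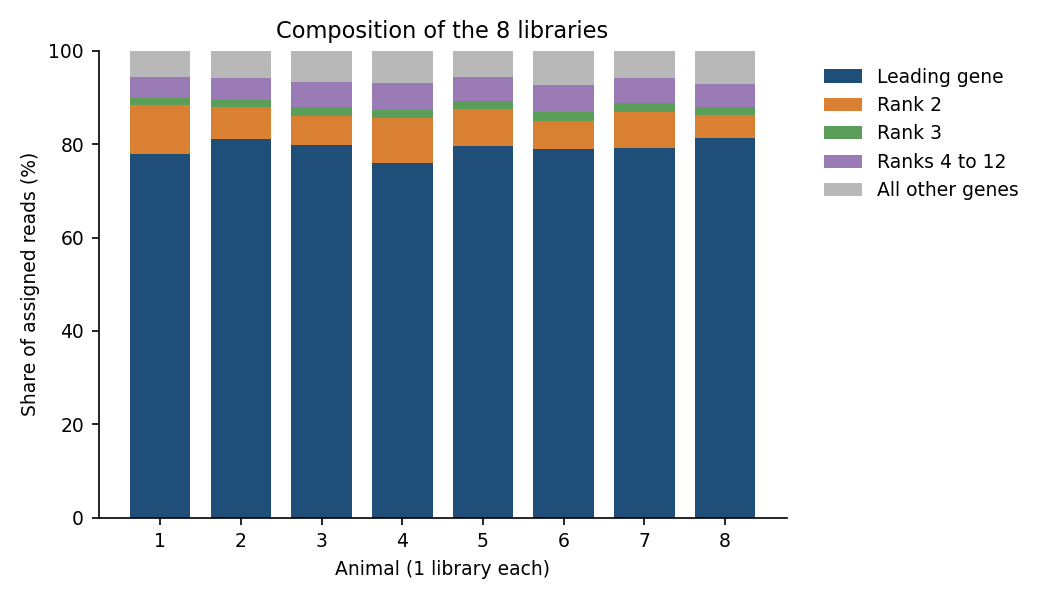
Stacked bars show the share of assigned reads (%, y axis) in each animal (x axis, 1 library each) that went to the leading gene, to the genes at ranks 2 and 3, to ranks 4 to 12 together and to all other genes. The leading gene fills between 75.9% (animal 4) and 81.4% (animal 8) of each bar, and rank 2 is the part that differs most in height.

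All other genes together shared 20.7% ± 1.77 of the reads (SD, n = 8). In reads, this left 734095 for them in animal 3, the lowest, and 1330180 in animal 4, the highest. There were 3.52 reads of the leading gene for each other read in animal 1, 4.30 in animal 2, 3.96 in animal 3 and 3.15 in animal 4. The same ratio was 3.93 in animal 5, 3.75 in animal 6, 3.81 in animal 7 and 4.38 in animal 8. The geometric mean was 3.83, and the log2 ratio was 1.94 ± 0.15 (SD, n = 8). With the gene at rank 2 taken out of the rest, the ratio rose by construction to a geometric mean of 5.97. The share of the leading gene differed 1.07-fold between the highest and the lowest animal, whereas its ratio to the rest differed 1.39-fold. A share this close to the whole leaves little room to vary, and the ratio shows the same differences without that limit.

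Set against single genes, the leading gene exceeded rank 2 by the least. The ratio to rank 2 was 7.45 in animal 1, 12.04 in animal 2, 12.7 in animal 3, 7.83 in animal 4, 10.1 in animal 5, 13.2 in animal 6, 10.5 in animal 7 and 16.7 in animal 8. Its geometric mean was 10.95, with an SD of 0.39 on the log2 scale. That SD was smaller at ranks 3, 4, 6, 8, 10 and 11 and larger at ranks 5, 7, 9 and 12. Animals 1 and 4 had the lowest ratios to rank 2 and animal 8 the highest, a 2.24-fold range. The ratio to rank 3, ENSBTAG00000029994, had a geometric mean of 45.4 and ran only from 39.0 in animal 7 to 49.8 in animal 1. At ranks 4 to 12 the geometric mean ratio rose from 83.7 to 216. Within this range the ratio to rank 4 lay between 64.9 (animal 8) and 95.5 (animal 1), and that to rank 12 between 144 (animal 6) and 408 (animal 1). The ratios are those of reads, and the efficiency of the library kit for each RNA was not tested.

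**Figure D2:**
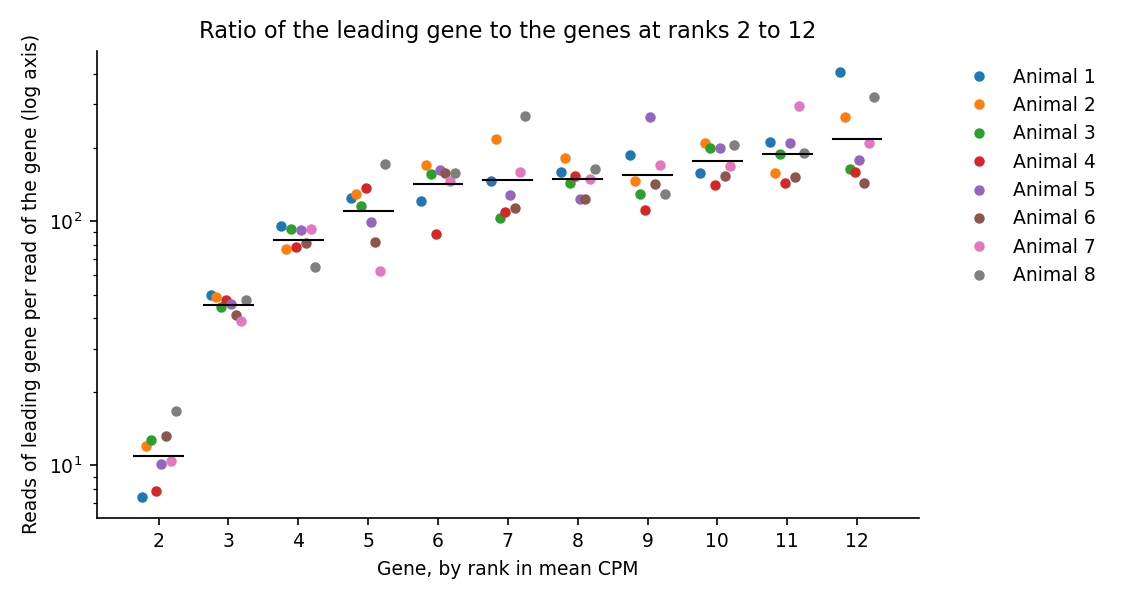
Each point is 1 animal's ratio of the reads of the leading gene to the reads of another gene (y axis, log scale), for the genes at ranks 2 to 12 in mean CPM (x axis); black bars are geometric means. Points at ranks 3 and 4 lie close together (39.0 to 49.8 and 64.9 to 95.5), while those at rank 2 run from 7.45 to 16.7 and those at rank 12 from 144 to 408.

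A ratio of 2 genes does not depend on how a library is scaled. The SD of the log2 ratio was therefore used to find genes in a near constant ratio to the leading gene over the 8 animals. The leading gene's own log2 CPM had an SD of only 0.03, so this SD lies near that of a gene's own log2 CPM. At rank 3 they were 0.12 and 0.13, and at rank 4 0.19 and 0.21. A small value thus marks a gene of steady CPM and need not mean that its level followed the leading gene. Among the 79 other genes that averaged at least 100 CPM the SD of the log2 ratio had a median of 0.43. It was smallest for the gene at rank 3, at 0.12. The genes at rank 17 (0.18), rank 4 (0.19), rank 8 (0.19) and rank 23 (0.19) came next. Their highest ratio exceeded the lowest by 1.28 times at rank 3 and by 1.42 to 1.47 times at the other 4. Rank 2 came in place 31 of the 79, with an SD of 0.39. The ratio varied most for the genes at rank 63 (SD 2.00), rank 73 (1.33) and rank 14 (1.31). At rank 63, which had few reads in animals 3 and 8, the ratio ran from 1787 in animal 1 to 55847 in animal 3. For ranks 73 and 14 the lowest ratio was in animal 8, at 1251 and 49.99, and without that animal their SDs were 0.44 and 0.73. Leaving out animal 8 also lowered the SD at rank 4 to 0.13. With animal 4 left out only 2 of the 5 genes with the smallest SD kept their place among the first 5, and with animal 1 left out 3 did.

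The genes were also ordered by Pearson's r with the leading gene, from log2 levels on a common reference over the 8 animals. Of the same 5 genes, 2 were among the first 5, those at ranks 3 (r = 0.76, Spearman's rho = 0.74) and 17 (r = 0.65, rho = 0.81). The others were rank 4 (r = 0.58, rho = 0.79), rank 23 (r = 0.44, rho = 0.38) and rank 8 (r = 0.36, rho = 0.10). The highest r was 0.88 at rank 27 (rho = 0.60) and the lowest -0.84 at rank 28 (rho = -0.62). Over the 79 genes the median r was -0.005, and 39 were above 0. These values are descriptions: the genes were picked as the extremes of 79, and all points of an animal share its library and its reference.

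Because the reads of a library add up to a fixed total, a lower share of the leading gene must be balanced by higher shares elsewhere. The gene at rank 2 balanced 84.9% of the variance of the leading gene's share over the 8 animals, and all genes at rank 3 and below together balanced 15.1%. These parts sum to 100% by construction and concern shares only. On the common reference, which all points of an animal share, the log2 levels of rank 2 and the leading gene had r = 0.37 (rho = 0.33). Of the 5 genes with the largest parts, the genes at ranks 14 (-15.5%) and 4 (-4.02%) had negative parts. The genes at ranks 6 and 7 had parts of 6.29% and 5.58%. Each of these 4 smaller parts kept its sign but changed in size when single animals were left out, most of all at ranks 14 and 4. The part of rank 14 was -1.72% without animal 8 and -25.9% without animal 4. That of rank 4 was -0.81% without animal 8 and -10.2% without animal 4. The part of rank 6 was 3.14% without animal 4, and that of rank 7 was 3.48% without animal 8. The part of rank 2 lay between 70.1% without animal 1 and 109% without animal 4, and was 74.2% without animal 8. Its jackknife standard error over animals was 29.8 percentage points.

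The extremes show the same balance of shares in points. From animal 4 to animal 8 the leading gene's share rose by 5.49 percentage points, from 75.9% to 81.4%. Over the same step the share of rank 2 went from 9.69% to 4.89%, a difference of -4.80 points, and all genes at rank 3 and below together changed by -0.69 points. Within that small sum, rank 14 went from 0.109% to 1.63% and rank 6 from 0.854% to 0.519%. These animals were picked as the extremes of the share, so the values are a description.

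How constant the leading gene was depended on the scale. On the deposited scale the SD of log2(CPM + 1) over the 8 animals was 0.03. With size factors taken from the genes at ranks 3 and below that had reads in every library, 223 in number, its SD was 0.17. On that reference scale the leading gene lay lowest in animals 6 (-0.29) and 4 (-0.22), as log2 differences from the mean of the animals. In the other 6 animals it lay between -0.003 and 0.15. The sum of all other reads had an SD of 0.15 on the same scale and rank 2 an SD of 0.42. With TMM factors instead, the leading gene lay lowest in animals 4 (-0.20) and 6 (-0.19) and highest in animal 7 (0.13). It was then at 0.04 in animal 1 and 0.01 in animal 8, so the smaller differences between animals depend on the factors used.

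The reference scale separates animals that a share places together. Animal 6 had a middling share of 78.9%, with the leading gene at -0.29, all other reads at -0.26 and rank 2 at -0.56. In animal 4, with the lowest share, the leading gene was at -0.22 while the other reads were at 0.06 and rank 2 at 0.26. In animal 1, with the second lowest share, the leading gene was at 0.11, above the mean, and the other reads were at 0.23, with rank 2 at 0.67. Animal 8, with the highest share, had the leading gene at 0.07, the other reads at -0.12 and rank 2 at -0.53. In both animals 4 and 1 rank 2 thus lay above the mean on this scale. They differed in the leading gene, which was low in animal 4, and in the other reads, which were higher in animal 1.

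**Figure D3:**
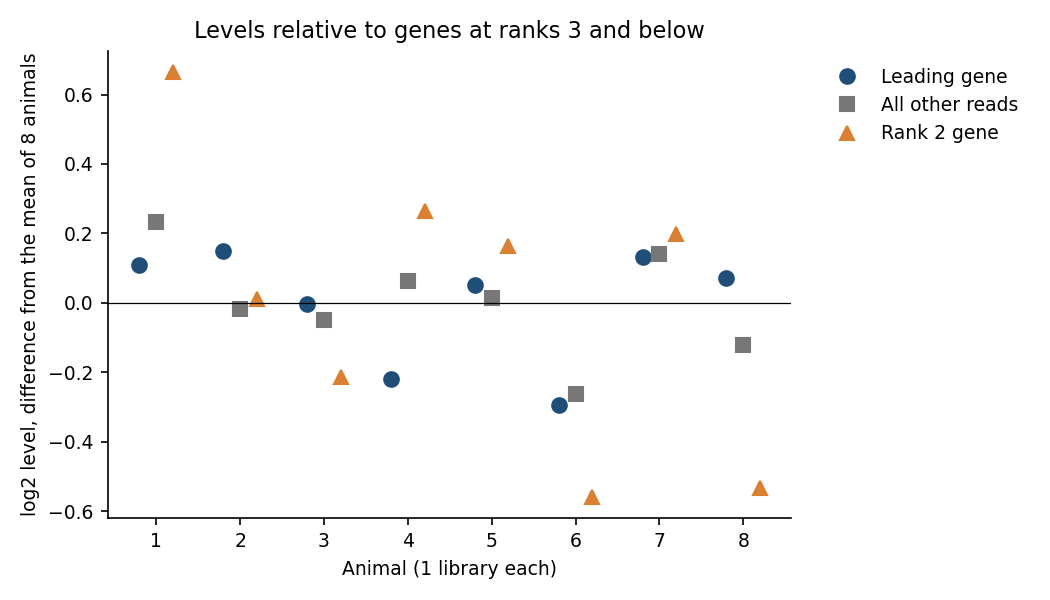
Points give, for each animal (x axis, 1 library each), the log2 level relative to size factors from the genes at ranks 3 and below, as the difference from the mean of the 8 animals (y axis), for the leading gene, all other reads together and the gene at rank 2. The leading gene lies at -0.29 in animal 6 and -0.22 in animal 4, and rank 2 spans from -0.56 (animal 6) to 0.67 (animal 1).

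The next question was how the leading gene shapes the values of the other rows. Leaving its reads out of the total multiplies every other gene by 4.15 in animal 4 and by 5.38 in animal 8, with a mean factor of 4.85 ± 0.40 (SD, n = 8). This factor differs 1.30-fold between these animals. On the scale without the leading gene, rank 2 took 35.5% ± 6.79 (SD, n = 8) of the other reads, from 26.3% in animal 8 to 47.2% in animal 1. Rank 3 took 8.50% ± 1.09, from 6.62% in animal 4 to 9.78% in animal 7. Rank 4 took 4.66% ± 1.01.

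The rest of the profile was far less concentrated than the whole. The effective number of genes, the exponential of the Shannon entropy of the shares, was 3.12 ± 0.21 with the leading gene and 21.0 ± 4.08 without it (SD, n = 8). Without it the number was lowest in animal 1, at 14.4, and highest in animal 6, at 26.4. In every animal the leading gene alone held more than 50% of all reads. Of the other reads, 2 to 5 genes were needed to hold 50%. To reach 90%, 4 to 7 genes sufficed over all reads and 31 to 36 over the other reads. Between 3 and 5 genes held at least 1% of all reads, and between 12 and 19 genes at least 1% of the other reads.

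The same reads limit what can be seen below the leading gene. One read was worth 0.170 to 0.275 CPM on the deposited scale and 0.752 to 1.36 per 1000000 of the other reads. A count of 0 leaves room for up to 3 reads, so a gene without reads could lie at up to 0.509 CPM in the deepest library and 0.825 in the shallowest. Per 1000000 of the other reads that limit was 2.26 in animal 4, which had the most other reads, and 4.09 in animal 3.

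For most other genes the spread between animals changed little when the leading gene was left out. Over the 79 genes the median SD of log2 values was 0.414 on the deposited scale and 0.409 without the leading gene. The SD was larger without it in 32 genes and smaller in 47, and the changes ran from -0.09 to 0.10. Rank 2 had an SD of 0.36 on the deposited scale and 0.28 without the leading gene, whereas rank 3 went from 0.13 to 0.20. Rank 10, singled out after its values were seen, went from 0.20 to 0.11, the smallest SD of the 79 on that scale, and took 2.17% ± 0.163 of the other reads (SD, n = 8).

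**Figure D4:**
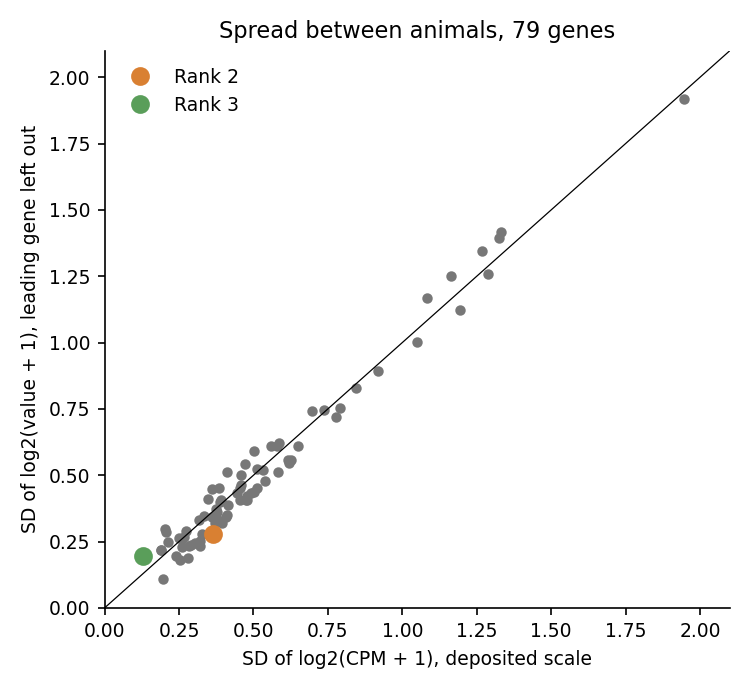
Each point is 1 of the 79 other genes that averaged at least 100 CPM, with its SD over the 8 animals of log2(CPM + 1) on the deposited scale (x axis) and of log2(value + 1) per 1000000 of the other reads (y axis); the line marks equal values. Most points lie near the line, rank 2 below it (0.36 and 0.28) and rank 3 above it (0.13 and 0.20).

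Which animal was the extreme one depended more on the leading gene. On the deposited scale animal 4 was the highest animal in 23 of the 79 genes and the lowest in 4. Without the leading gene it was the highest in 8 and the lowest in 11. Animal 8 was the highest in 16 and the lowest in 26 on the deposited scale, and the highest in 20 and the lowest in 21 without the leading gene. For 19 genes another animal became the highest, and for 17 another became the lowest. With rank 2 also left out, animal 4 was the highest in 14 and animal 1 in 19 of the other 78 genes. The count of genes for which an animal is the highest thus moved with the scaling, most of all for animal 4. Its direction was fixed there: animal 4 has the smallest factor, so its values must fall against the others when the leading gene is left out.

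A direct comparison of animals 8 and 4 moved in the same way. Of the 79 genes 57 were lower in animal 8 than in animal 4 on the deposited scale, with a median log2 difference of -0.50. Without the leading gene 45 were lower, with a median of -0.13. The shift between the scales was 0.37 on the log2 scale for every gene, and 12 genes changed direction. This shift follows by construction from the factors of animals 8 and 4, the extremes of the share. No test was made between 2 single libraries.

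**Figure D5:**
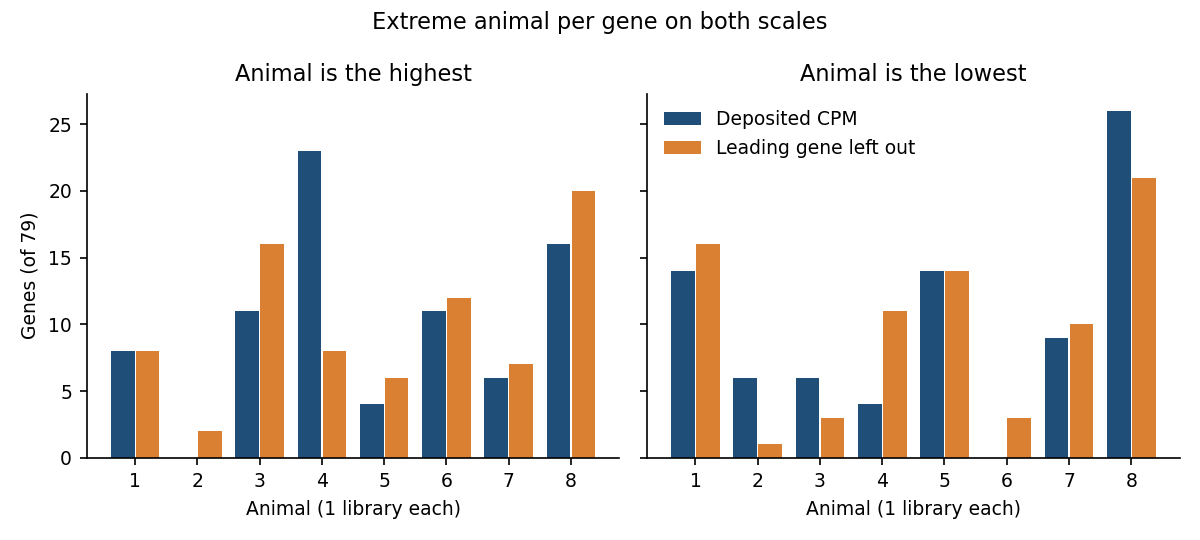
Bars count the genes (y axis, of 79) in which each animal (x axis, 1 library each) had the highest value (left) or the lowest (right), on the deposited CPM and with the leading gene left out of the total. Animal 4 is the highest in 23 genes on the deposited scale and in 8 without the leading gene, while animal 8 stays high in both panels.

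On a linear scale, a gene of this size also sets the likeness between libraries. Over the genes that averaged at least 10 CPM, Pearson's r between pairs of libraries ran from 0.99709 to 0.99998, with a median of 0.9996. Without the leading gene the range was 0.926 to 0.997 with a median of 0.989, and without ranks 1 and 2 it was 0.789 to 0.990 with a median of 0.959. With the leading gene in, 2 of the 7 lowest pairs included animal 8. Without it all 7 lowest pairs did, so that every pair with animal 8 lay below every other pair. Among the other 7 animals the lowest r was 0.998 with the leading gene and 0.970 without it. With ranks 1 and 2 both left out, all 7 lowest pairs again included animal 8. Among the other 7 animals the lowest r was then 0.918, with a median of 0.967. Each r is taken across genes, and genes do not stand for replicates.

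Finally, the share of the leading gene was compared over the 8 animals with 4 measures of the libraries, each by a two-sided exact permutation test with Benjamini-Hochberg adjustment over the 4 relations. None passed after adjustment. Against the library total, Pearson's r was -0.51 (exact p = 0.19, adjusted 0.21) and Spearman's rho -0.64 (exact p = 0.096, adjusted 0.19), and without animals 2 and 3, the 2 farthest from the median total, r was -0.50 and rho -0.37. Against rank 2 as a share of the other reads, r was -0.60 (exact p = 0.11, adjusted 0.21) and rho -0.69 (exact p = 0.069, adjusted 0.19), with r = -0.37 and rho = -0.31 without animals 1 and 8. Against rank 3 as a share of the other reads, r was 0.78 (exact p = 0.026, adjusted 0.10) and rho 0.52 (exact p = 0.20, adjusted 0.20). Without animals 1 and 4, r turned to -0.21 and rho to -0.14, so that relation rests on those animals. Against the effective number of genes among the other reads, r was 0.50 (exact p = 0.21, adjusted 0.21) and rho 0.57 (exact p = 0.15, adjusted 0.20), with r = 0.60 without animals 1 and 6. Without those 2 animals rho was 0.89 (exact p = 0.033, adjusted 0.13). The sum of the other reads enters both the share and the measures taken on those reads, so these relations are not free of how the values are computed. With 8 animals, a relation of moderate size cannot be told from none.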

How the data were processed

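Small RNA of cultured alveolar macrophages from 8 cattle was sequenced, 1 library per animal. The deposited table holds CPM values, the authors' reads of a gene per 1000000 assigned reads; the unit was read from the values. Tools listed without roles in the submitters' processing notes are HTSeq, Novoalign 2.07.11, cutadapt 1.0, FastQC 0.10.0 and CASAVA 1.8.2. Not given in the sources used here are the genome build, annotation, strand use and handling of multiply mapping reads, so near-identical gene copies are uncertain. Rows are genes, so the arms of a hairpin are not separated.

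Whole reads were recovered by dividing by the smallest value of each column: 100% of the 2379 values above 0 came out whole within 0.02 of a read. With a single group, no count test exists. At these depths the counting error of the leading gene's share was 0.0167 to 0.0213 percentage points. Log values are log2(CPM + 1), and the spread was taken over genes that averaged at least 100 CPM. Size factors were medians of ratios, and TMM factors came from edgeR 4.0.16 in R 4.3.3. Other steps used Python 3.11.15, numpy 2.4.6, pandas 2.3.3 and scipy 1.17.1.

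The leading gene, the lists and the measures were chosen with earlier results of these data known. Named genes are the leading gene, ranks 2 to 12, the 5 genes with the smallest and 3 with the largest SD of the log2 ratio to it, and the 5 with the largest parts of its variance. Alternatives were other scalings, pseudocounts, minimum levels, thinning, another diversity index and leaving out each animal in turn. Lists of cell-type microRNAs and of genes with the same seed were not used, since the rows carry no names.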

Additional observations from a re-analysis of the deposited data

Results flagged for a closer look

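For 23 measures of the 8 animals, the lowest or highest animal was set against the 95% critical value of Dixon's ratio, which chance passes in about 1 of 20 measures. One was marked: the log2 ratio of the leading gene to the gene at rank 73 was 10.29 in animal 8, against 13.35 to 14.65 in the other 7. That gene was named for its large SD, which this animal sets. The share of the leading gene itself held no such animal.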

How the results depend on the processing

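The share of the leading gene was 79.3%. It stayed within its SD with only genes of at least 10 CPM in the total and after thinning to 3638161 reads. With single animals left out it was 78.9 to 79.7%. Leaving out a single animal cannot move this mean beyond the SD, so that range is no test of stability. The SD of the leading gene's log2 level was 0.03 on the deposited scale. It was 0.164 with median-of-ratios factors, 0.133 with TMM factors and 0.166 with factors from ranks 3 and below. Without single animals the SD on the deposited scale was 0.022 to 0.035, the lowest without animal 4. The log2 ratio was 3.45 to rank 2 and 5.50 to rank 3, and 1.94 to the rest and 2.58 to the rest without rank 2, by construction; without single animals the first was 3.37 to 3.53 and that to the rest 1.91 to 1.98. The inverse Simpson index, which weights abundant genes more, gave 1.58 effective genes with the leading gene and 7.24 without it; leaving out single animals gave 3.06 to 3.15 and 20.2 to 21.9 by the entropy. The median SD of other genes without the leading gene was 0.36 to 0.43 without single animals. It was 0.45 with a minimum mean of 10 CPM, 0.38 with 1000 CPM and 0.41 with a pseudocount of 0.5 or 10. The correlation of the share with rank 3 as a share of the other reads was 0.53 to 0.88 without single animals; without animal 7 it passed (r = 0.88, exact permutation test, adjusted p = 0.034), and without animals 1 and 4 it turned to -0.21. Without single animals, adjusted p for that relation ran from 0.034 to 0.30. The other 3 relations kept their sign and did not pass by Pearson's r after adjustment, with ranges of -0.63 to -0.44 for the library total, -0.70 to -0.45 for rank 2 and 0.36 to 0.64 for the effective number. Of the 5 genes with the smallest SD of the log2 ratio to the leading gene, 2 to 5 were among the first 5 without single animals. The number was 2 with Pearson's r as the measure, 4 with a minimum mean of 10 CPM and 5 with 1000. The part of the variance balanced by rank 2 was 70.1 to 109% without single animals, a wide range. Its standard error is computed from these same values, so it cannot serve to judge them. For these lists, the SDs of ratios and the smaller parts, leaving out animals was chosen after seeing the data, as was rho without 2 animals. No paired analysis was possible because all libraries belong to 1 group. Depth limits the genes near 1 read, not the leading gene.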
